A study of Mus musculus with 2 samples.

Results

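Immediate early genes are the genes a cell transcribes within minutes of a stimulus, without making new protein first. The 10 genes described here were Fos, Fosb, Jun, Junb, Jund, Egr1, Ier2, Atf3, Nr4a1 and Dusp1. They were chosen by name and found by gene symbol among the 33757 features of the deposited count table. All 10 were present, and all 10 passed the filter on low counts.

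The cells were mouse fibroblasts of the line NIH3T3-Rev-VNP1-H2B-iRFP, an NIH3T3 derivative with a Venus reporter of the clock gene Nr1d1 (Rev-erb alpha) and a nuclear iRFP label carried by histone H2B. All cells came from cultures with 10% serum that had reached 95% confluency about 5 days after seeding, with no clock synchronization and no treatment. They were detached with trypsin, filtered, stained with DAPI to leave out dead cells, and sorted singly into 2 plates of 384 wells. Full-length transcripts were read by FLASH-seq. Each plate held 4 gates of rising Venus fluorescence with 96 cells each, and the sorting record placed high RFP cells on plate 1 and low RFP cells on plate 2. The labels instead give 2 iRFP bins on each plate, a conflict that these sources do not settle. By the sorting record, plate and RFP sort cannot be told apart. A given Venus gate took identical well columns on plate 1 and plate 2, so gate and well column cannot be told apart. The labels do not say whether the line is 1 clone or whether the plates came from separate cultures, so p-values measure only the spread between these sums of cells.

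Serum, growth factors, stress and mechanical disturbance all switch these genes on through kinase cascades that act on factors already bound to DNA. Fos and Jun family proteins pair to form AP-1, a dimer that binds DNA. Egr1, Atf3 and Nr4a1 are transcription factors too, Ier2 is a nuclear protein of the early response, and Dusp1 is a phosphatase that switches MAP kinases off again. Their transcripts are short-lived, and cell dissociation is a well-known trigger. Per1, a repressor of the circadian clock, can also be induced as an immediate early gene through the cyclic AMP response element (CRE) and its binding protein CREB.

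To show what the members and Per1 share in sequence, the 150 bases before each RefSeq start site (build GRCm38.p6) were searched on both strands. The motifs were the CRE (TGACGTCA), its core (TGACGT), the AP-1 site (TGANTCA), the E-box (CACGTG), the Egr site (GCGTGGGCG) and the CArG box of serum response factor. A CRE holds the core on each strand. The windows of Fos, Dusp1, Atf3 and the second start site of Per1 are printed because they held a match, 5′ to 3′ on the strand of the gene, with the matches in capitals.

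Fos (chr12:85473740-85473889, plus strand): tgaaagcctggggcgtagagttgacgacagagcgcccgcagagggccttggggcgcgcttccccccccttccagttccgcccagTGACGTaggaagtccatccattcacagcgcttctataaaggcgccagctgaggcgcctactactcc
Dusp1 (chr17:26508473-26508622, minus strand): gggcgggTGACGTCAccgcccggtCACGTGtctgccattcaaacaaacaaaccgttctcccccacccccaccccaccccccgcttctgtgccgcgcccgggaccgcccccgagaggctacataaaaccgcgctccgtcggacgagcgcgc
Atf3 (chr1:191183334-191183483, minus strand): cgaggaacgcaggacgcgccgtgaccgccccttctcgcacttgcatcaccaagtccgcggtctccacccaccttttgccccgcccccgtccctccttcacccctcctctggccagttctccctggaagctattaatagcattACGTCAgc
Per1 start site 2 (chr11:69100002-69100151, plus strand): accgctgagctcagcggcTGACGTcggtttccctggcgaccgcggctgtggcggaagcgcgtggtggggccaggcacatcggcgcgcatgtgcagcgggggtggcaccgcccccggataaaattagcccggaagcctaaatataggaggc

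The CRE core lay 66 to 61 bases before the Fos start site. In Dusp1 a full CRE lay at 143 to 136 bases and an E-box at 126 to 121 bases. In Atf3 the core stood on the other strand at 8 to 3 bases, and at the second Per1 start site it stood at 132 to 127 bases. No match to these 6 motifs was found in the windows of Fosb, Jun, Junb, Jund and Nr4a1 or at the first Per1 start site. Windows of 8 of the 10 members were searched, and Egr1 and Ier2 are named only. Of 32851 promoter windows of the same length, 5.15% held the CRE core, 1.36% the full CRE and 4.30% the E-box. The AP-1 site stood in 4.24%, the CArG box in 0.916% and the Egr site in 0.426% of windows. These matches describe letters, not binding.

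Of the 768 cells, 762 passed the filter. They held 151173 to 1618022 counts each, with medians of 835930 on plate 1 and 857229 on plate 2. Summed per plate and gate they gave 8 sums of 76042157 to 86612194 counts. The 10 fibroblast markers (collagens, Vim, Fn1 and others) summed to 19853 to 26331 CPM (counts scaled to equal library totals) in the 8 sums. The 3 epithelial markers in the table summed to 26.0 to 44.2 CPM, the 6 leukocyte markers to 6.36 to 12.7 CPM and the 3 endothelial markers to 0.340 to 0.796 CPM. Ptprc and Cd3e, which mark leukocytes, were at 0 on plate 1, and Epcam, which marks epithelium, was at 0 on plate 2. Most of the epithelial sum was Krt14 and most of the leukocyte sum was Lyz2.

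Per kilobase of exon (GENCODE M21 models), Ier2 had the highest level of the 10 members, at 74.3 CPM per kb on plate 1 and 78.0 on plate 2. Jund followed with 41.2 and 39.0, Dusp1 with 38.2 and 36.3, and Junb with 29.9 and 29.7 CPM per kb. Jund and Dusp1 overlapped in their ranges over the 8 sums (33.6 to 43.2 and 27.8 to 41.6 CPM per kb), so their order is not clear beyond that spread. Jun stood at 21.2 and 21.8, Egr1 at 14.8 and 15.1, and Fos at 13.7 and 12.3 CPM per kb. The lowest were Nr4a1 at 2.75 and 2.18, Atf3 at 1.39 and 1.00 and Fosb at 1.29 and 1.12 CPM per kb. Per1 lay between these groups, at 4.19 and 4.64 CPM per kb. All members were thus detected in these confluent cells after detachment and sorting, from the abundant Ier2 down to Atf3 and Fosb.

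Fos, Junb and Ier2 fell toward bright Venus, and the fall lay mainly in the brightest gate. None of the 10 members rose, and the other 7 did not pass the test. In the fit over all genes, 15.4% of 18430 genes were called in either direction, 8.64% lower and 6.78% higher toward bright Venus. Against that background, 3 of 10 members were called, all lower. Without the replicate block 1 member was called, beside 1683 of all 18430 genes. With the gate number as a linear covariate 0 members were called, beside 1858 of all 18430 genes (edgeR). The higher share of all calls was 44.0% with TMM scaling, 57.8% without it and 64.5% with mean log2 CPM over cells. A gate sum alone cannot tell fewer expressing cells from less RNA per cell, so the single cells are given where they bear on it.

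Ier2, a nuclear regulator of the early response, had TMM-scaled levels of 122.9, 126.2, 118.0 and 94.9 CPM from the dimmest to the brightest gate of plate 1. On plate 2 it had 122.6, 128.2, 125.7 and 88.9 CPM. The 3 dimmer gates lay close together on both plates, and the brightest lay below all of them. The trend was -0.13 ± 0.02 on the log2 scale per gate step (SE, 8 sums). Its adjusted p was 0.00555 (quasi-likelihood test of edgeR, Benjamini-Hochberg adjustment). The plates alone gave -0.12 and -0.14. With the gate number as a linear covariate the adjusted p was 0.0774 (edgeR). Between 98.9% and all of the cells in each gate had an Ier2 count. The median cell had 60.0 and 63.1 CPM in the brightest gate of plates 1 and 2, and 92.8 to 106 CPM in the others.

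Fos, the AP-1 subunit most used as a marker of recent stimulation, had 36.4, 30.6, 38.1 and 26.7 CPM over the gates of plate 1. On plate 2 it had 34.3, 31.4, 28.3 and 20.1 CPM. Its brightest gate was the lowest on each plate and did not overlap the other 6 sums. The trend was -0.17 ± 0.04 per step, with an adjusted p of 0.0254 (edgeR), and -0.10 and -0.24 on the plates alone. The call was lost without the replicate block (adjusted p = 0.0836) and with the gate number as a linear covariate (adjusted p = 0.0765, edgeR). In the brightest gate 77.1% and 72.3% of cells had a Fos count, and in the other gates 76.6% to 87.4%.

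Junb, a Jun family member that often opposes Jun, had 75.8, 71.1, 75.9 and 58.0 CPM on plate 1 and 65.7, 71.7, 74.1 and 56.3 CPM on plate 2. Again the brightest gate alone stood apart. Junb had a trend of -0.08 ± 0.02 per step with an adjusted p of 0.0390 (edgeR). Without TMM scaling the Junb trend was -0.07 with an adjusted p of 0.0742 (edgeR), so the call does not hold there. It was also lost without the replicate block (adjusted p = 0.0745) and with the gate number as a linear covariate (adjusted p = 0.261, edgeR). A Junb count was found in 95.8% to 98.96% of cells in every gate, and the median cell had 42.1 and 35.9 CPM in the brightest gate against 47.7 to 56.2 CPM in the others. Junb shares its locus with Prdx2, a peroxidase gene on the other strand, and the sources used here do not say whether counting used strand. Prdx2 fell too, by 0.07 per step (adjusted p = 0.0198, edgeR), and reads from the overlap of the pair cannot be told apart.

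The contrast of the brightest gate with the mean of the other 3 was added after these values were seen. It called 10.4% of all genes, 5.67% as lower and 4.75% as higher, and again called Fos, Junb and Ier2. Ier2 was lower by 0.43 ± 0.05 (adjusted p = 0.00429), Junb by 0.34 ± 0.06 (adjusted p = 0.0136) and Fos by 0.51 ± 0.10 (adjusted p = 0.0240) on the log2 scale (edgeR). Fosb had a value of -0.51 ± 0.21 and Egr1 of -0.27 ± 0.13, with adjusted p-values of 0.168 and 0.240, and both overlapped the other gates.

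**Figure D1:**
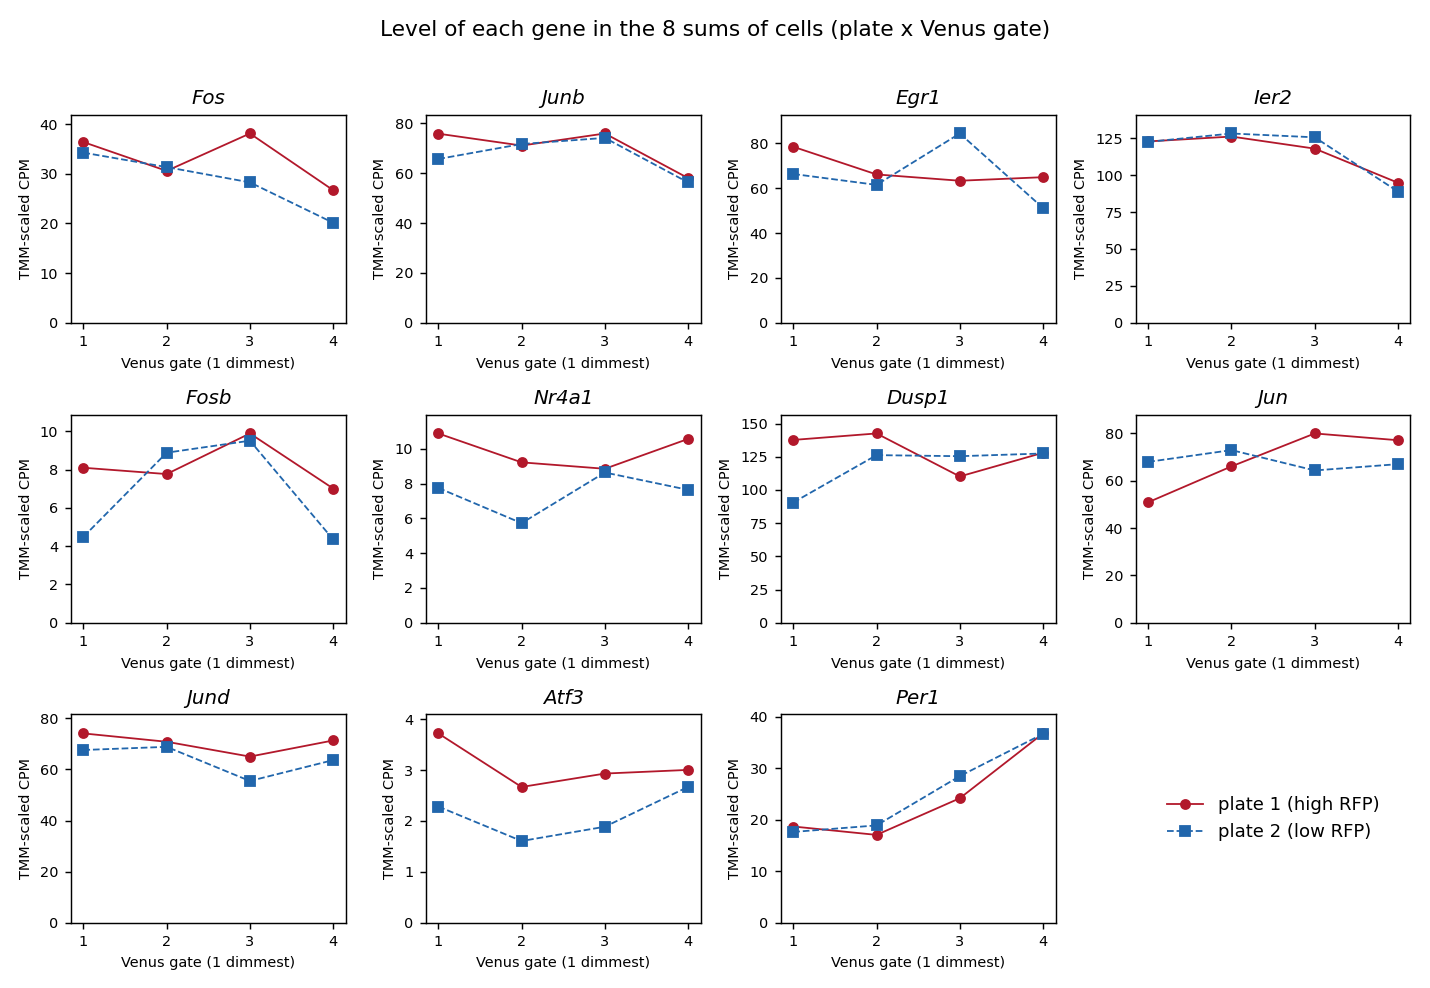
Level of each member and of Per1 in the 8 sums of cells, in TMM-scaled CPM (vertical axes, from 0), against the Venus gate from 1 (dimmest) to 4 (brightest). Solid red lines are plate 1 (high RFP), dashed blue lines plate 2 (low RFP). Fos, Junb and Ier2 are lowest in gate 4 on both plates, at 20.1 to 26.7, 56.3 to 58.0 and 88.9 to 94.9 CPM. Per1 is highest there, at 36.7 to 36.8 CPM.

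Per1 ran the other way. It had 18.7, 17.0, 24.2 and 36.8 CPM over the gates of plate 1 and 17.6, 18.9, 28.5 and 36.7 CPM on plate 2. Per1 rose by 0.36 ± 0.03 per step with an adjusted p of 0.00123 (edgeR). The gates were cut on a reporter of the same clock, so this rise describes the gates. Where Per1 was highest, Fos, Junb and Ier2 were lowest.

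Jun, the main partner of Fos in AP-1, did not pass the test on the summed counts, and among 11 settings it passed only with the mean over cells of log2(CPM + 1). Its sums were 50.9, 66.1, 80.01 and 77.1 CPM on plate 1 and 68.0, 73.0, 64.4 and 67.0 CPM on plate 2. Jun had a trend of 0.09 ± 0.05 per step with an adjusted p of 0.289 (edgeR), from 0.21 on plate 1 and -0.02 on plate 2. The level in the median cell was 28.8, 39.7, 68.1 and 49.8 CPM over the gates of plate 1 and 33.0, 50.7, 45.9 and 56.0 CPM on plate 2. In Jun the dimmest gate had the lowest median on each plate. On that scale Jun rose by 0.28 ± 0.04 per step (adjusted p = 4.76e-04, limma), while the mean CPM over cells gave 0.09 ± 0.05 (adjusted p = 0.261, limma). The share of cells with a Jun count went from 94.7% to 98.96% between the outer gates of plate 1 and from 86.3% to every cell on plate 2. Junos, an antisense RNA of the Jun locus, was called higher at 0.38 ± 0.06 per step (adjusted p = 0.00940, edgeR) at 5.45 and 5.09 CPM. Reads from the overlap of Jun and Junos cannot be told apart without strand.

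The other 6 members gave no call. Jund, the AP-1 member that resting cells keep on, had 55.5 to 74.1 CPM in the 8 sums, a trend of -0.04 ± 0.02 and an adjusted p of 0.210 (edgeR). Egr1, a zinc finger factor induced by growth factors, ranged from 51.2 to 84.4 CPM, with -0.07 ± 0.05 (adjusted p = 0.381). Dusp1 ranged from 90.6 CPM in the dimmest gate of plate 2 to 142.6 CPM on plate 1, with 0.04 ± 0.05 (adjusted p = 0.701). Its other 6 sums lay between 110.2 and 137.7 CPM.

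Fosb, a relative of Fos, had 8.09, 7.76, 9.88 and 7.01 CPM on plate 1 and 4.48, 8.88, 9.51 and 4.35 CPM on plate 2. Its middle gates were the higher pair on plate 2, and a linear trend, here -0.02 ± 0.08 (adjusted p = 0.904, edgeR), does not describe such a shape. Nr4a1, an orphan nuclear receptor, had 5.73 to 10.9 CPM and a trend of 0.02 ± 0.05 (adjusted p = 0.872). Atf3, a stress-induced repressor, had 1.61 to 3.72 CPM and a trend of 0.01 ± 0.06 (adjusted p = 0.962). The standard errors of Fosb, Nr4a1, Atf3, Jun, Egr1 and Dusp1, 0.05 to 0.08, were near the size of the Junb trend (-0.08). A trend of that size could not be told from none in these genes. The Egr1 trend of -0.07 was itself close to that of Junb, which was called. Genes named Gm11175 and Gm24748 overlap Jund and Atf3 on the other strand in the annotation, which leaves some of their counts uncertain.

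A list of 40 other immediate early genes, of which 38 were tested, held 11 genes that fell and 5 that rose. Its median trend was -0.05 per step, against a median of 0.0005 over all genes tested. Plk2, a polo-like kinase, fell by 0.37 ± 0.03 per step, and Ccn2, a matrix-associated growth factor, fell by 0.36 ± 0.06. Among the genes that rose, Fosl1, an AP-1 subunit, had 0.33 ± 0.08 and Ptgs2, the inducible prostaglandin synthase, had 0.27 ± 0.06. Ccn1, a relative of Ccn2, fell by 0.21 ± 0.04. Adjusted p-values of these 5 genes were 0.00129, 0.00780, 0.0296, 0.0271 and 0.0108 (edgeR). The direction thus differed between genes of the list.

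Among 10 tested CREB target genes 4 rose and none fell. They were Per2, with 0.70 ± 0.07 per step, Per1, the phosphodiesterase gene Pde4b, with 0.22 ± 0.05, and Dusp14, with 0.13 ± 0.04 (adjusted p = 0.00208, 0.00123, 0.0226 and 0.0418, edgeR). Per1 and Per2 are clock genes. Of 9 genes of negative feedback on ERK and calcineurin, Rcan1 alone was called, at 0.13 ± 0.03 (adjusted p = 0.0263, edgeR). Of 9 AP-1 partners outside the members, Fosl1 alone was called.

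Of 14 heat shock and dissociation genes, Hsp90aa1 (0.15 ± 0.01 per step), Bag3 (0.09 ± 0.02) and Hspd1 (0.08 ± 0.02) rose, and Hspa8 and Ubb fell by 0.09 ± 0.02 and 0.06 ± 0.01. Their adjusted p-values were 0.00130, 0.0252, 0.0172, 0.0124 and 0.0174 (edgeR). Of 9 genes of the ATF4 stress response, 5 fell and 1 rose, and the largest fall was that of Trib3, a pseudokinase, by 0.40 ± 0.03 (adjusted p = 4.28e-04, edgeR). Ddit4 fell by 0.27 ± 0.04, Ddit3 by 0.22 ± 0.02, Atf5 by 0.17 ± 0.05 and Ppp1r15a by 0.14 ± 0.04 (adjusted p = 0.00709, 0.00208, 0.0438 and 0.0449, edgeR). Asns, the asparagine synthetase, rose by 0.07 ± 0.02 (adjusted p = 0.0499, edgeR). The 14 S phase genes held 9 that rose and none that fell, led by Mcm5 with 0.48 ± 0.11 (adjusted p = 0.0241, edgeR). Of 18 G2/M genes 5 rose and none fell, led by Nusap1 with 0.57 ± 0.11 (adjusted p = 0.0144, edgeR). On plate 2 alone several G2/M genes without a call had negative trends, such as Cenpf with -0.21 and Tpx2 with -0.15. The part of cell cycle genes in the fall of Fos, Junb and Ier2 was not tested. Of the 10 fibroblast markers 5 fell, among them Fn1 by 0.26 ± 0.02 and Thy1 by 0.45 ± 0.07 (adjusted p = 8.77e-04 and 0.00844, edgeR), and Vim rose by 0.11 ± 0.01 (adjusted p = 0.00167). Lyz2 rose by 0.22 ± 0.05 per step (adjusted p = 0.0276, edgeR). Their part was not tested either.

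For each member, the highest 5% of cells held a larger share of the summed CPM than in most genes of its level. In single cells the highest 5% (20 of 383 cells on plate 1, 19 of 379 on plate 2) held 30.0% and 29.1% of the summed Fos CPM. All genes were placed in 10 bins of equal size by mean CPM. The median over the 1843 genes in the same bin was 12.4% and 11.9%. All 10 members lay above the 90th percentile of their own bin on both plates.

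Egr1 had the widest range among the abundant members. The median cell of plates 1 and 2 had 19.0 and 28.2 CPM, the 90th percentile was 186 and 199 CPM and the highest cell had 1373 and 578 CPM. At the same time 25.1% and 21.6% of cells had no Egr1 count. Its highest 5% of cells held 31.6% and 24.1% of the summed CPM, where genes of that level had a median of 10.9% and 10.5%.

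Fos showed the same form at a lower level. The median cell had 15.2 and 12.9 CPM, the 90th percentile was 86.3 and 82.7 CPM and the highest cell had 425 and 207 CPM. No Fos count was found in 17.5% and 22.2% of cells. With each cell thinned to 697000 counts, 82.4% of plate 1 cells had a Fos count, against 83.0% of the same cells unthinned.

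Atf3 was the most concentrated member. It had no count in 77.5% and 83.4% of cells, and its highest 5% of cells held 57.5% and 69.7% of the summed CPM. Nr4a1 had 35.4% and 36.9%, and Fosb had 26.9% and 29.4%. Both are low in level, and genes of their bin had medians of 18.2% and 17.8%.

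Jund and Ier2 were the most even. Jund had a count in every cell of both plates, and its highest 5% held 16.7% and 14.8% of the sum. Ier2 had 16.01% and 17.7%, Dusp1 18.4% and 18.3%, Junb 20.0% and 19.1%, and Jun 22.1% and 21.9%. Per1, at 18.8% and 16.3%, was closer to its bin, which had medians of 14.5% and 14.0%. Other clock genes lay above the 90th percentile of their bins on both plates, so a high share over pooled gates was not particular to the members. Nr1d1 had 23.0% and 18.5%, Dbp 19.5% and 17.2%, and Per2 31.1% and 28.6% of the sum in the highest 5% of cells. All these shares pool the gates of a plate, which were cut on a clock reporter. From the dimmest to the brightest gate of plate 1, Nr1d1 went from 60.9 to 1266 CPM. The shares of the clock genes therefore include differences between gates, and do not compare with the members inside a gate.

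**Figure D2:**
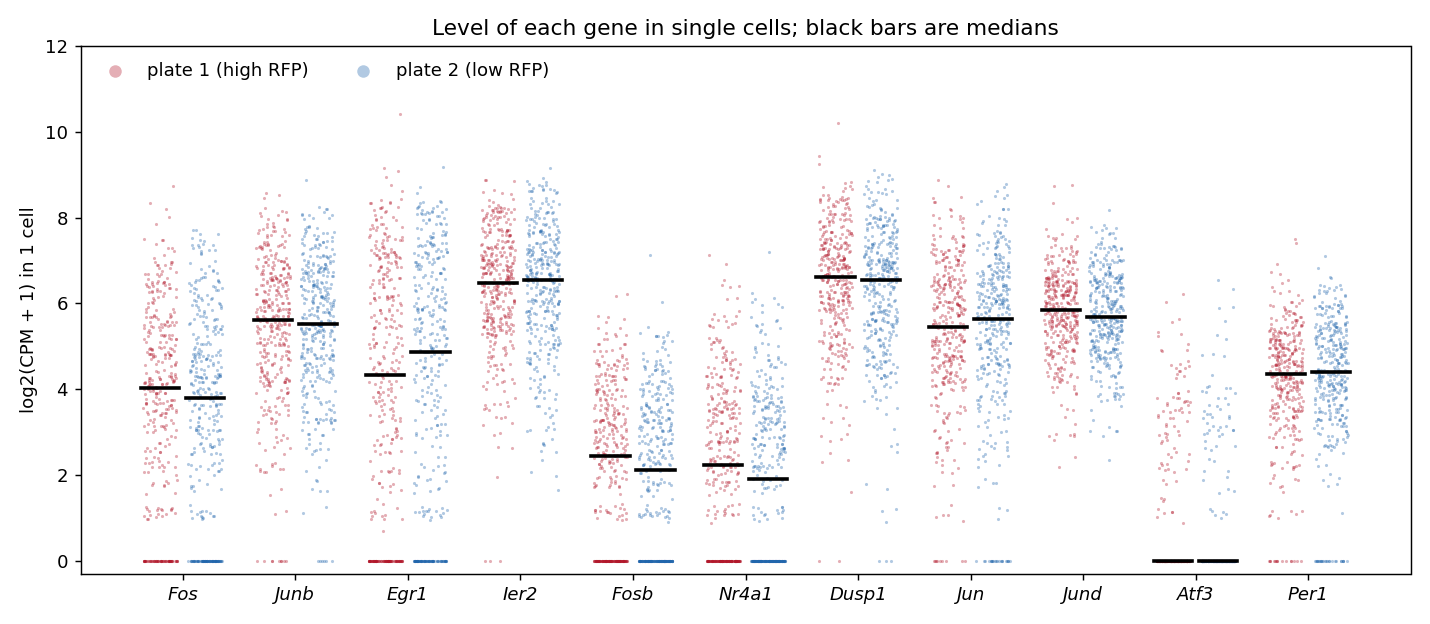
Level of each member and of Per1 in single cells, as log2(CPM + 1), for plate 1 (red) and plate 2 (blue). Each point is 1 of 762 cells and black bars are medians. Jund lies above 0 in every cell, and Ier2 in 99.2% of plate 1 cells and every plate 2 cell. Egr1 and Fos spread over the whole range with 17.5% to 25.1% of cells at 0, and the Atf3 median is at 0.

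**Figure D3:**
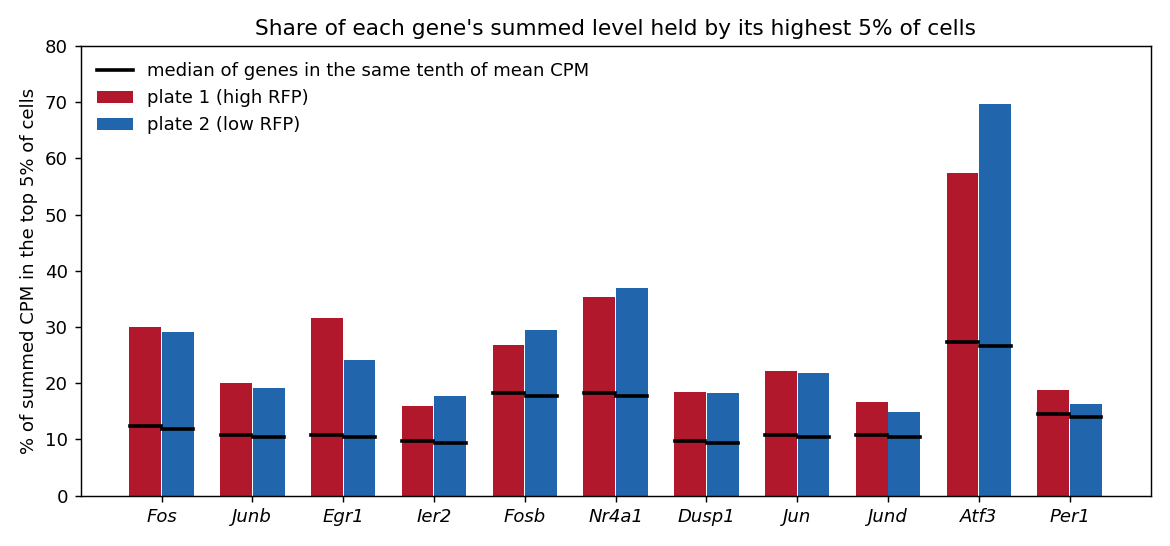
Share of each gene's summed CPM held by its highest 5% of cells, in percent, for plate 1 (red) and plate 2 (blue). Black bars mark the median of all genes in the same bin of mean CPM. Atf3 reaches 57.5% and 69.7%, and every member lies above its black bar on both plates.

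The same cells tended to be high in several members. Fos and Junb shared 8 of their 20 highest cells on plate 1 and 7 of 19 on plate 2, and Junb and Ier2 shared 11 and 8. Unrelated genes would share 1.04 and 0.953 on average. Fos and Fosb shared 10 and 5. At least 3 of the 10 members were in their highest 5% in 23 cells of plate 1 and 18 cells of plate 2, and 2 cells and 1 cell had 6. The 23 cells were spread over the Venus gates as 5, 5, 8 and 5, and the 18 cells as 5, 8, 3 and 2.

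Across cells, the members fell into a set with Fos, Junb, Egr1 and Ier2, a set with Jun, Jund and Atf3, and 3 genes in between. These sets were made after the correlations were seen, and the values are a description without a test. All are Spearman correlations of CPM ranked within the Venus gates, over 383 cells of plate 1 and 379 of plate 2. The cells of a plate share its library preparation, and each correlation shares the depth of the cell.

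Within Fos, Junb, Egr1 and Ier2 the 6 pairs had correlations of 0.51 to 0.65 on plate 1 (median 0.60) and 0.51 to 0.72 on plate 2 (median 0.63). Junb and Ier2 were closest, at 0.65 and 0.72, and were between 0.61 and 0.75 in each of the 8 plate and gate groups. Of 10585 genes with a count in at least 50% of cells, the central 95% correlated with Junb between -0.16 and 0.18 on plate 1 and between -0.24 and 0.21 on plate 2.

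Jun, Jund and Atf3 had lower correlations, with a median of 0.28 and 0.22 over 3 pairs. Jun and Jund were at 0.42 and 0.45 and were positive in all 8 groups, from 0.34 to 0.51. Between the sets the 12 pairs had medians of -0.03 and -0.04. Markers of cell type moved with Jun, Jund and Atf3: Krt14, a keratin, correlated with their mean at 0.42 and 0.47, Pdgfra at -0.40 and -0.41 and Fn1 at -0.30 and -0.32, and their part was not tested. Jund and Egr1 were at -0.25 on plate 1 and -0.14 on plate 2, and Jun and Junb at -0.09 and -0.17.

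Fosb, Nr4a1 and Dusp1 leaned to the first set. Fosb correlated with Fos at 0.38 and 0.36, Nr4a1 with Ier2 at 0.29 and 0.21, and Dusp1 with Ier2 at 0.25 and 0.25. The 45 member pairs together had a median of 0.13 and 0.12. The AP-1 genes were therefore split over both sets, with Fos, Fosb and Junb on the first side and Jun and Jund on the other.

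**Figure D4:**
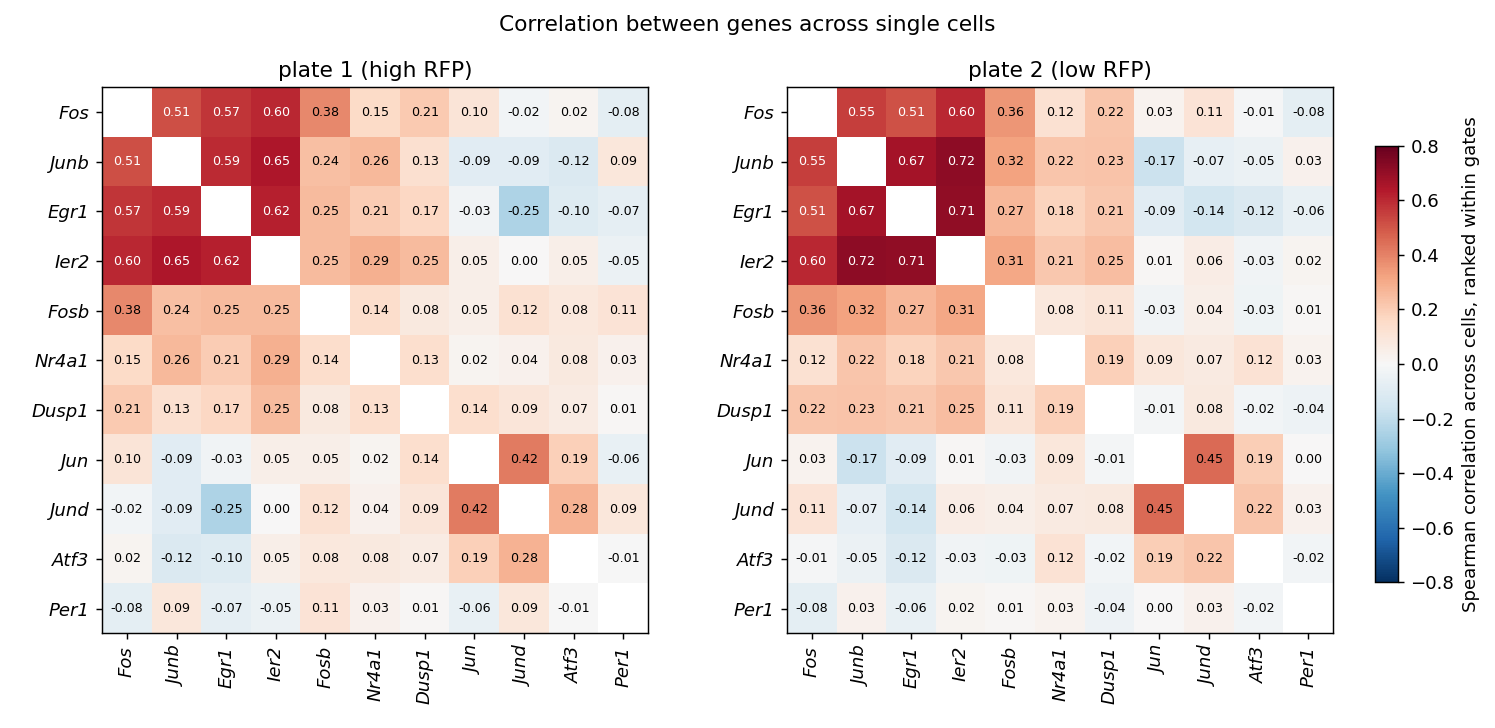
Spearman correlations between the members and Per1 across single cells, ranked within Venus gates, on plate 1 (left, 383 cells) and plate 2 (right, 379 cells). Genes are ordered by the sets described in the text. Fos, Junb, Egr1 and Ier2 form a block of 0.51 to 0.72, Jun and Jund stand at 0.42 and 0.45, and the Per1 row runs from -0.08 to 0.11.

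Per1 did not move with the members from cell to cell. Its correlations with the 10 members had a median of 0.003 on plate 1 and 0.005 on plate 2, from -0.08 to 0.11 and from -0.08 to 0.03. With Fos it was -0.08 on both plates and with Junb 0.09 and 0.03. In the 8 groups, Per1 with Fos ran from -0.28 to 0.12 and was positive in 1. The genes most like Per1 were Dbp, at 0.21 and 0.22, Tef, at 0.22 and 0.20, and Per2, at 0.20 and 0.18, all genes of the circadian clock or its output.

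The cells highest in Fos, Junb or Ier2 shared no cell with those highest in Per1 on either plate. With 20 and 19 cells, unrelated genes would share about 1 cell for each pair of genes on each plate. The other members shared 0 to 3 cells with Per1. Fos, Junb and Ier2 share high cells with each other, so their pairings with Per1 are not independent. The number for unrelated genes also leaves out the gates: 12 of the 20 highest Per1 cells of plate 1 and 8 of the 19 of plate 2 were in the brightest gate. The absence of shared cells was not tested. Per1 averaged 23.3 CPM in the highest Fos cells of plate 1 and 24.2 CPM in the rest, and 16.6 and 26.6 CPM on plate 2. In the highest Nr4a1 cells it averaged 34.1 CPM against 23.6 CPM in the rest on plate 1, and 31.6 against 25.8 CPM on plate 2. These means pool the gates, in which Per1 differs: 9 of the 19 highest Fos cells of plate 2 were in the dimmest gate and 2 in the brightest, and 8 of the 20 highest Nr4a1 cells of plate 1 were in the brightest. Fos, Dusp1 and Atf3, which share the CRE core with the second Per1 start site, had correlations with Per1 of -0.08 to 0.01. The 5 members with no match, Fosb, Jun, Junb, Jund and Nr4a1, had -0.06 to 0.11. The search took exact letters near the start site only. Close variants stand in the windows of Jun (tgacatca), Fosb (tgacgcaa), Junb (tgacgcga) and Nr4a1 (tgcgtcag and tgcgtcac). These groups therefore do not separate members with and without CRE-like sites, and a link through the CRE was not tested.

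Genes outside the members were ranked by their correlation with the mean level of the 10. Of 11096 candidates the closest was Zfp36, which encodes a protein that destabilizes short-lived mRNAs, at 0.52 and 0.65. It was followed by Ccn1, at 0.39 and 0.55, Egr2, at 0.40 and 0.37, and Btg2, at 0.35 and 0.36. These 4 are themselves known immediate early genes. Ddit3, Ccnd2, Ppp1r15a, Nfe2l1 and Klf2, also among the closest 10, were at 0.26 to 0.32.

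For single members the closest genes differed by set. Zfp36 was closest to Fos (0.54 and 0.60), to Junb (0.56 and 0.65) and to Ier2 (0.58 and 0.64). For Egr1 the closest was its paralog Egr2, at 0.55 and 0.54, followed by Zfp36 and by Dusp6, the phosphatase of ERK, at 0.32 and 0.31. For Fosb the 3 closest were Cald1, Malat1 and Zfp36, and for Nr4a1 they were Ccn1, Zfp36 and Btg2, at 0.21 to 0.29.

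Jun was closest to Klf4, a zinc finger factor, at 0.40 and 0.51, and then to Txn1 and Clic4. Jund was closest to Carhsp1, at 0.56 and 0.60, and then to Clic4 and Serpinb6a. Atf3 was closest to Eif4ebp1, a translation inhibitor, at 0.45 and 0.32, and to Psph, an enzyme of serine synthesis, at 0.36 and 0.32, with Car6 as the third. Dusp1 was closest to Ergic1, at 0.37 and 0.28, and then to Adm and Ccn1. Ergic1 overlaps Dusp1 on the other strand in the annotation, and without strand reads from that overlap cannot be told apart. Ergic1 was called higher at 0.14 ± 0.02 per gate step (adjusted p = 0.00621, edgeR), where Dusp1 was not called.

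The lists were divided between the sets as well. Of the 37 other immediate early genes with enough cells, 25 correlated positively with the mean of Fos, Junb, Egr1 and Ier2 on both plates, with a median of 0.09 and 0.10. Among all 11096 candidates, 4027 were positive with that mean on both plates. Klf4 went with Jun, Jund and Atf3, at 0.54 and 0.58, and had -0.12 and -0.05 with the first set. Rhob, Klf6 and Klf2 were positive with both sets, Rhob at 0.38 and 0.37, Klf6 at 0.21 and 0.35 and Klf2 at 0.24 and 0.33 with Jun, Jund and Atf3. The 9 genes of the ATF4 stress response had a median of 0.33 and 0.23 with Jun, Jund and Atf3 and of 0.09 and 0.15 with the first set. The summed CPM of this list correlated with Atf3 at 0.41 and 0.25 and with Jund at 0.27 and 0.25, but with Jun at 0.12 and 0.07, below Ier2 at 0.19 and 0.16. Over all candidates the medians of single genes lay between -0.004 and 0.013. Atf3 is a textbook target of ATF4.

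**Figure D5:**
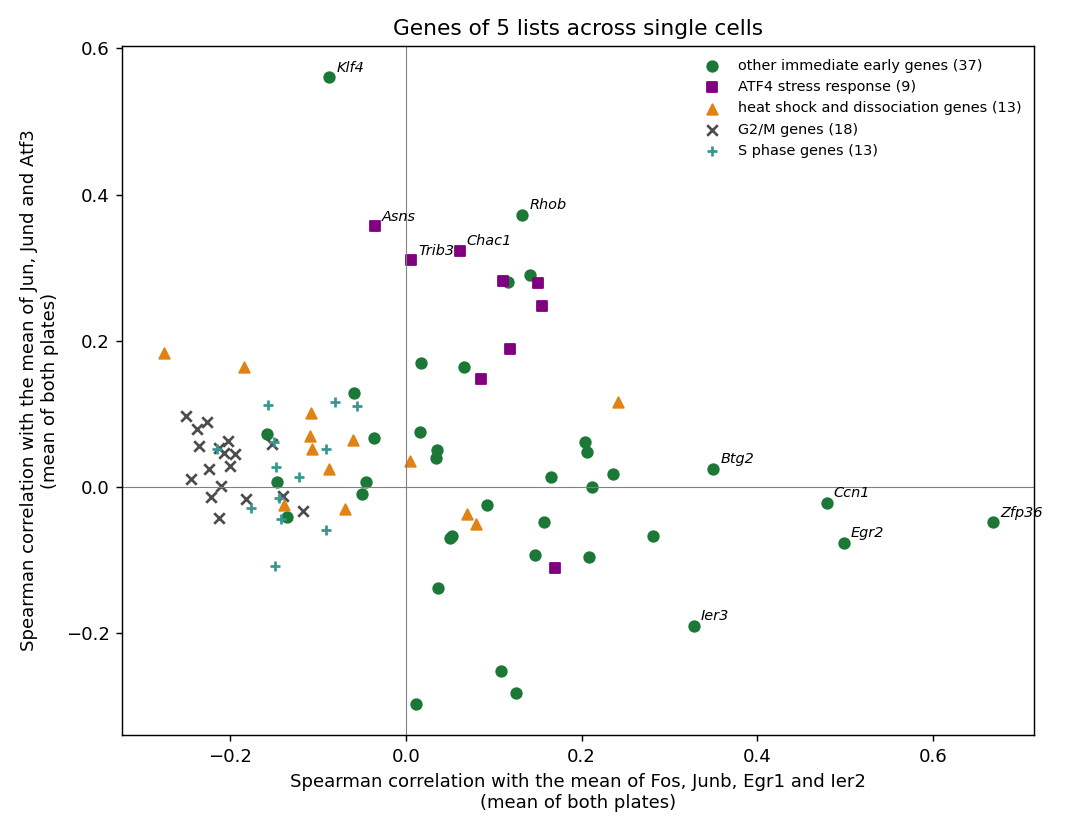
Spearman correlation of list genes with the mean of Fos, Junb, Egr1 and Ier2 (horizontal) and with the mean of Jun, Jund and Atf3 (vertical), each the mean of both plates. Each symbol is a gene of 1 of 5 lists. Zfp36, Egr2 and Ccn1 lie far right, Klf4, Asns and Trib3 lie high, and all 18 G2/M genes (grey crosses) lie left of 0.

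The first set, and Fosb outside it, were lower in cells with high cell cycle genes. The summed CPM of the 18 G2/M genes correlated with Fos, Junb, Egr1 and Ier2 at -0.22 to -0.16 on plate 1 and -0.33 to -0.25 on plate 2. The S phase sum gave -0.15 to -0.06 and -0.27 to -0.15. Fosb had -0.19 and -0.31 with the G2/M sum and -0.12 and -0.305 with the S phase sum. Jun, Jund and Atf3 ranged from -0.07 to 0.12 with the G2/M sum on both plates, and Nr4a1 and Dusp1 from -0.04 to 0.06. All 18 G2/M genes correlated negatively with the mean of the first set on both plates. Of 9 fibroblast markers 6 were positive with that mean on both plates, among them Col1a1 at 0.32 and 0.43, against 4027 of 11096 candidates. The part of these genes in the members' levels was not tested.

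Handling was traced through the recorded sort time, because wells were filled row by row while gates ran along columns. Sort time followed the plate row (Spearman 0.998 on each plate) and had no relation to the column. Plate 1 was filled before plate 2 by the event counter. The 10 members correlated with sort time at -0.07 to 0.08 on plate 1 and at -0.07 to 0.05 on plate 2.

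In 4 consecutive blocks of 4 plate rows, Ier2 had 109.7, 122.4, 108.7 and 111.8 CPM on plate 1 and 125.4, 111.2, 139.3 and 98.1 CPM on plate 2. Fos had 31.9, 32.8, 29.5 and 34.9 CPM on plate 1 and 26.7, 32.4, 37.0 and 20.0 CPM on plate 2. Neither gene had a common direction over both plates. From the first to the last block Fosb went from 9.51 to 6.10 CPM on plate 1 and from 7.39 to 6.26 CPM on plate 2, and Jun from 71.0 to 64.8 and from 72.7 to 64.1 CPM, with the blocks between not in order. Atf3 went from 3.48 to 2.42, 1.57 and 1.02 CPM over the blocks of plate 2, but had 2.64, 3.20, 2.99 and 3.20 CPM on plate 1. Its few high cells weigh on each of these values.

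Heat shock and dissociation genes did not go with the first set. Their summed CPM correlated with Fos, Junb, Egr1 and Ier2 at -0.13 to -0.05 on plate 1 and -0.23 to -0.14 on plate 2, and with Jun, Jund and Atf3 at 0.08 to 0.11 and 0.10 to 0.16. Of 13 such genes, 3 were positive with the mean of the first set on both plates, against 4027 of 11096 candidates. The mitochondrial share of counts, a sign of cell quality, correlated at -0.20 to -0.10 with Jun, Jund and Atf3 on plate 1 and at -0.19 to -0.10 on plate 2. With Fos, Junb, Egr1 and Ier2 it was at -0.08 to 0.05 on plate 1 and 0.05 to 0.14 on plate 2. With Fosb, Nr4a1 and Dusp1 it was at -0.09 to 0.05 and -0.12 to 0.17. Total counts correlated with the members at -0.05 to 0.10 and -0.04 to 0.15. All cells were detached and sorted, so no value here compares them with undisturbed cells, and the part of handling in the members' levels was not tested.

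Between the plates, the largest ratios were those of 2 low members. Atf3 had a ratio of plate 1 (high RFP in the sorting record) to plate 2 (low RFP) of 1.39 with an exact 95% interval of 1.26 to 1.53, and was higher on plate 1 in 4 of 4 gates. Nr4a1 had 9.64 and 7.64 CPM, a ratio of 1.26 (1.20 to 1.33). Fosb had a ratio of 1.15 and Fos of 1.11, and the other 6 members lay between 0.953 and 1.06. Per1 was at 0.904 (0.876 to 0.933). The intervals cover counting error only and treat reads as independent, which PCR copies are not. They leave out the spread between cells, which is wide for Atf3. With 1 plate a side no test was made, and RFP sort, plate and sort order cannot be told apart.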

How the data were processed

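The authors deposited raw counts per gene and cell for 2 plates, with a sorting record that gave fluorescence intensity in arbitrary units, gate, well and time (unit not stated). The submitters' processing notes name STAR 2.7.11a, SAMtools, bedtools, HTSeq and the build GRCm39 (mm39), without roles. The annotation, the use of strand and molecular identifiers are not given in the sources used here. Symbols matched 24902 of 33757 features, and features without a symbol held 1.07% of counts.

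Cells with at least 1000 genes, at least 0.1 of the plate median total and at most 25% mitochondrial counts were kept. No doublet caller was run, since each well received 1 cell. Gates were ordered by median Venus intensity. Counts were summed per plate and gate (8 sums) and tested by quasi-likelihood (edgeR 4.0.16, R 4.3.3) after TMM scaling and filterByExpr, with gate and plate as terms (3 residual degrees of freedom), linear contrast over gates, threshold 0.05 on adjusted p-values over 18430 genes. Plate was the replicate block, since the gates of a plate shared its sort and library preparation. Standard errors came from the F statistic, and single-plate trends from log2 CPM (prior count 2). The procedure was tested on simulated data. Alternatives used DESeq2 1.42.0, limma 3.58.1, other scalings, filters, cell weightings and thinning. Correlations across cells (Python 3.11.15, scipy 1.17.1) carry no test. Intervals cover counting error only, since PCR copies are not independent molecules.

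The members, the lists and the rule for naming genes were chosen with earlier results of these data known. The rule named the members, Per1, the 10 genes most like the members' mean (1 of them is not reported here), the 3 most like each member, and up to 5 called genes per list with the largest trends; Klf4, Rhob, Klf6 and Klf2 were named in the comparison of lists, Asns, Cenpf, Tpx2, Fn1, Vim, Thy1, Pdgfra, Krt14, Lyz2 and Col1a1 as list genes or cell type markers, and Junos, Prdx2 and Ergic1 for overlap, after their values were seen. Exon lengths and overlaps came from GENCODE M21 and promoter windows from RefSeq on GRCm38.p6, a build other than that of the counts, so no coordinates were joined.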

Additional observations from a re-analysis of the deposited data

Results flagged for a closer look

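The trend over the Venus gates had opposite signs on the plates for 4 members. The differences, plate 1 minus plate 2, were 0.23 per gate step on the log2 scale for Jun (0.21 and -0.02), -0.17 for Atf3 (-0.08 and 0.09), -0.0715 for Nr4a1 (-0.02 and 0.05) and -0.22 for Dusp1 (-0.07 and 0.15). With 1 sum per gate on each plate these differences were not tested.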

How the results depend on the processing

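The trends of Fos, Junb, Ier2 and Per1 kept their sign under every alternative run; other called genes were followed by counts only. Without the replicate block, 1683 of 18430 genes, 1 member (Ier2) and 9 of the other immediate early genes were called. The model with the block called 2843, 3 and 16. With the gate number as 1 covariate (additive linear model, edgeR) 1858 genes, 0 members and 9 other immediate early genes were called, and 2 members had an unadjusted p under 0.05. DESeq2 called 3 members, beside 3452 of 33715 genes. Over 11 settings of the same contrast, adjusted p-values ranged from 2.22e-04 to 0.0836 for Fos, from 1.12e-07 to 0.0774 for Ier2 and from 0.00545 to 0.261 for Junb, and were under 0.05 in 9, 10 and 6 settings. Junb was not called without TMM, without the block, in the additive model, with thinned counts or with the mean CPM over cells. Over the fits with both plates, members without a call took the other sign in 5 cases: Atf3 at -0.0071 without the block, Fosb at 0.0047 with mean CPM and 0.0268 with mean log2 CPM, Nr4a1 at -0.0017 with mean log2 CPM, and Jund at 0.01 in the brightest gate against the other 3, an alternative chosen after seeing the data. Of all calls, 44.0% were higher toward bright Venus with TMM, 57.8% without it, 57.6% with mean CPM and 64.5% with mean log2 CPM. For the other immediate early genes, 10 of 19 calls were higher with mean log2 CPM. With thinned counts the median correlation of Per1 with the members, averaged over the plates, was 0.014 in place of 0.0039. Leaving out a plate gave trends of -0.24 to -0.10 for Fos, -0.14 to -0.12 for Ier2 and -0.11 to -0.06 for Junb, of -0.02 to 0.21 for Jun, -0.08 to 0.09 for Atf3, -0.02 to 0.05 for Nr4a1 and -0.07 to 0.15 for Dusp1, whose signs differed, and no counts, since 1 plate leaves no test.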
